A study of Mus musculus with 10 samples.

Results

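The collagen genes were taken as all rows of the count table whose symbol is Col, a number, the letter a and a number, which gave 44 of 18025 genes. By class, 11 encode fibrillar collagens, 6 the basement membrane collagen type IV, 9 FACIT collagens (fibril-associated collagens with interrupted triple helices), 6 the beaded filament collagen type VI, and 12 other collagens. They were measured by messenger RNA sequencing of the gastrocnemius, a large calf muscle, in 10 samples from C57BL/6 wild-type mice whose listed age was 8 weeks. The 5 COPD samples came, per the series title, from a cigarette smoke model of chronic obstructive pulmonary disease, and the other 5 were controls. The labels give no exposure schedule, sex, batch or hour of collection, and do not give the number of animals behind the samples, so the p-values below reflect variation among these 10 samples, which may be technical.

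Collagens are extracellular matrix proteins built as trimers of chains that wind into a triple helix. Fibrillar collagens form the tensile fibrils of tendon and of the connective tissue around muscle fibres, and FACIT collagens sit on the surface of such fibrils. Type IV collagen forms the sheet-like network of basement membranes around muscle fibres and capillaries, and type VI collagen links that sheet to the surrounding matrix. In muscle much of this matrix is made by fibroblasts and vascular cells, with tendon and the muscle-tendon junction adding types of their own. In bulk tissue, more or fewer cells of a type and more or less RNA per cell cannot be told apart.

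Library totals were 14085854 to 17163590 expected counts in COPD and 15637218 to 17251034 in control, so that counting error is large for genes near 1 CPM (counts relative to the library total, scaled between libraries by TMM). Transcripts of muscle fibres dominated: 7 of 7 fibre markers were present, and together they held 185024 to 214543 TPM in COPD and 142617 to 223884 TPM in control. TPM, the authors' abundance per transcript length, has the same total in every library and is used below to compare genes, while CPM is used to compare groups. Counts of 3 Y-linked genes summed to 3 or 4 in COPD replicates 1, 4 and 5 and to 1118 to 1973 in the other 7 libraries. The groups were thus not balanced in these transcripts, which every control library held, and the main edgeR test had no term for them. Differences between COPD and control cannot be fully told apart from differences that go with Y-linked transcripts. Without COPD replicate 5, 410 genes (3.21%) passed an adjusted p of 0.05 in edgeR, against 8 with it.

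Levels per length spanned a wide range. Col4a1 and Col4a2, the chains of the type IV collagen found in nearly all basement membranes, were the most abundant, with means of 30.8 and 28.5 TPM over all 10 libraries. Next came Col1a1 (20.4 TPM) and Col1a2 (17.5 TPM), the chains of type I collagen, then Col6a1 (16.2 TPM) and Col6a2 (16.02 TPM) of type VI and Col3a1 (15.4 TPM) of type III. These 7 genes held 67.8% of the summed collagen TPM, and within each of the pairs of types I, IV and VI the order of the chains differed between libraries. At the other end, 17 members were under 1 TPM in every library, while 18 were at 1 TPM or more in every library. The other type IV chains were far below the first pair: Col4a3, Col4a4 and Col4a5 had means of 0.367, 0.361 and 0.300 TPM.

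**Figure D1:**
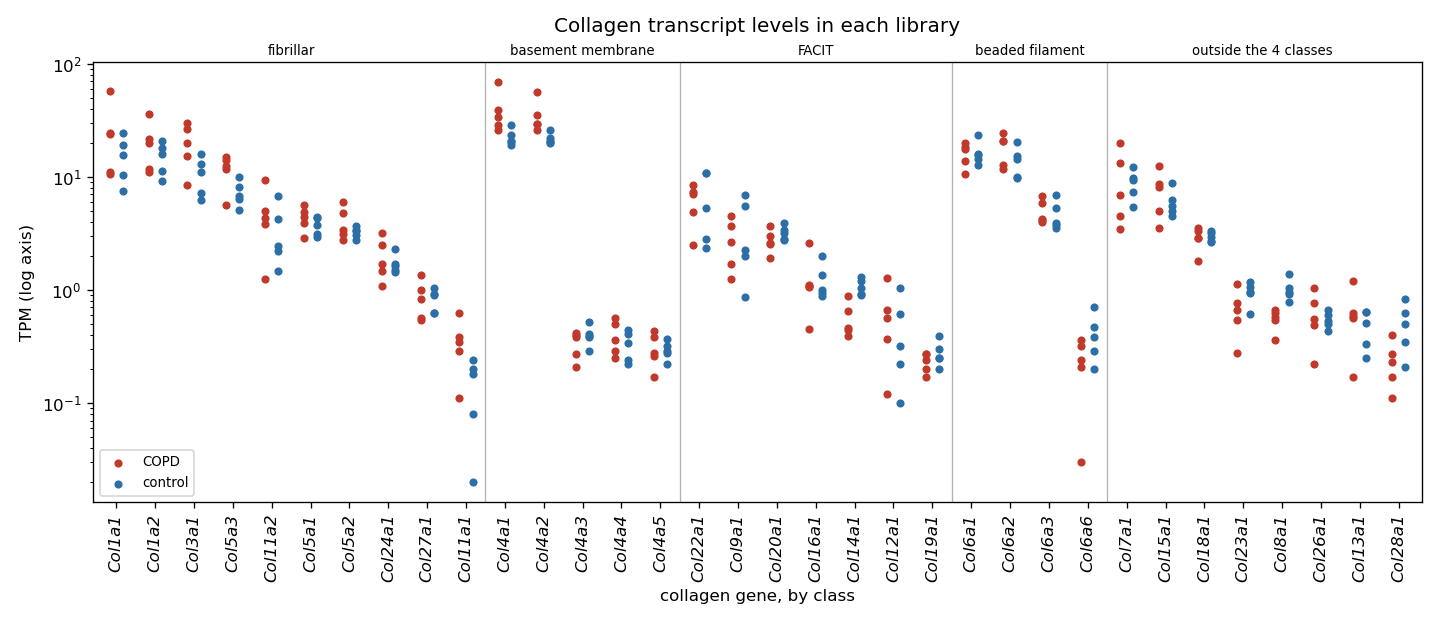
TPM of the 34 tested collagen genes (log axis), by class, with 1 point per library, COPD left of control for each gene. Col4a1 and Col4a2 lie highest, and the COPD points of Col4a2 lie above all its control points. The margin in TPM is thin, with COPD replicate 1 at 26.05 and control replicate 3 at 26.01.

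Of the 44 members, 34 passed the filter on low counts and were tested. The 10 that did not were Col2a1, Col4a6, Col6a4, Col6a5, Col8a2, Col9a2, Col9a3, Col10a1, Col17a1 and Col25a1, none of which exceeded 28 counts in a library. Col2a1, the main cartilage collagen, had at most 7 counts, and Col10a1, made by hypertrophic chondrocytes, at most 1. No tested member passed the adjusted threshold of 0.05 in edgeR's quasi-likelihood test, a threshold passed by 0.063% of all 12697 tested genes. At an unadjusted p under 0.05, 7 members (20.6% of 34) were higher in COPD, where 7.94% of all genes were, and 3 (8.82%) were lower, where 6.64% of all genes were. Of the 34 members 25 had a log2 fold change over 0 (median 0.36), against 48.0% of all tested genes with a median of -0.01. Without COPD replicate 3 the count was 21 of 34 (median 0.19), and without the 3 libraries that held counts of the bone gene Bglap, a choice made after the data were seen, it was 20 of 35 (median 0.09). DESeq2 called 4 members higher, Col4a2 (adjusted p = 0.00213), Col4a1 (adjusted p = 0.00689), Col5a3 (adjusted p = 0.0368) and Col3a1 (adjusted p = 0.0431). It fitted 44 members and 17925 genes in all, of which 2.34% were called and 1.48% called higher. By its default DESeq2 gave no adjusted p to genes of low mean count. The shares among genes that could be called were therefore higher and were not computed. Voom with sample weights called 1 (Col4a2, adjusted p = 0.0499; background 1.08% of genes in either direction) and limma on log2(TPM + 1) called 0 of 20 (background 0.869%).

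The classes did not lie alike around 0. All 10 tested fibrillar genes lay above 0 in log2 fold change (median 0.61), and 5 had an unadjusted p under 0.05. Without COPD replicate 3, 9 of 10 lay above 0 (median 0.39). Over the 7 libraries with Y-linked transcripts 10 of 10 did (median 0.97), but the COPD libraries there are replicates 2 and 3 alone. In the basement membrane class 4 of 5 were above 0 (median 0.40, or 0.25 without COPD replicate 3) and 2 had such a p. The beaded filament class had 3 of 4 above 0 (median 0.22) and the FACIT class 3 of 7 (median -0.05), with 0 and 1 members at such a p. Of the 8 tested members of other types, 5 were above 0 (median 0.25), and both with such a p were lower. No test was made of the difference between classes.

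**Figure D2:**
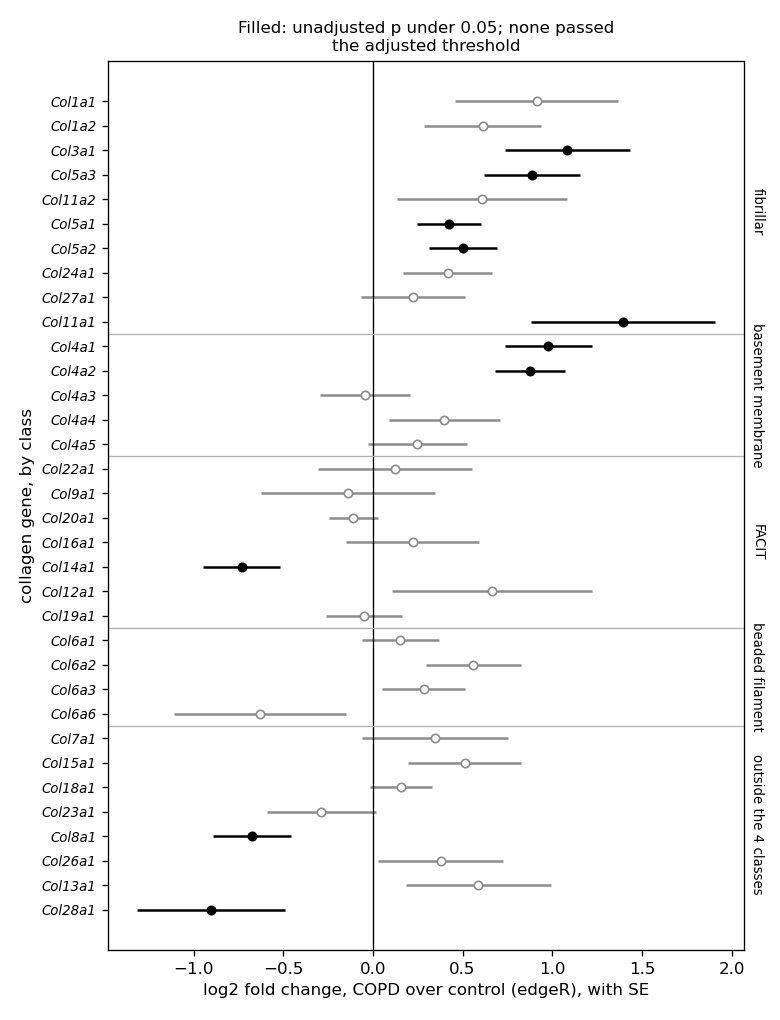
Log2 fold change of COPD over control with its SE (edgeR) for the 34 tested collagen genes, by class. Filled points had an unadjusted p under 0.05, and no gene passed the adjusted threshold; all 10 fibrillar genes lie right of 0 and the FACIT gene Col14a1 lies left of it.

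Summed TPM describes the same classes by level, with no test. Fibrillar genes together were at 92.1, 61.4, 159, 103 and 52.0 TPM in COPD replicates 1 to 5 and at 81.5, 40.6, 75.9, 44.0 and 65.3 TPM in control replicates 1 to 5, with overlap between the groups. Basement membrane genes were at 55.9, 64.2, 75.7, 126 and 55.7 TPM in COPD, against 41.7, 45.5, 55.9, 43.4 and 40.1 TPM in control. Here 3 COPD libraries lay above every control, and COPD replicates 1 and 5 lay just under control replicate 3. The mean basement membrane sum was 75.4 ± 29.3 TPM in COPD and 45.3 ± 6.26 TPM in control (SD, n = 5 each), a ratio of 1.66, or 0.73 in log2 and 0.47 without COPD replicate 4. The fibrillar ratio was 1.52, or 0.61 in log2 and 0.33 without COPD replicate 3. The beaded filament ratio was 1.11, or 0.16 in log2, and leaving out 1 library moved it between 0.05 (without COPD replicate 4) and 0.33 (without control replicate 3). The FACIT ratio was 0.870, or -0.20 in log2, and ranged likewise between -0.37 (without COPD replicate 3) and 0.0078 (without control replicate 5), so that its direction was not stable. On the log2(TPM + 1) scale the median difference of all genes tested was -0.18, a shift that these ratios include.

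**Figure D3:**
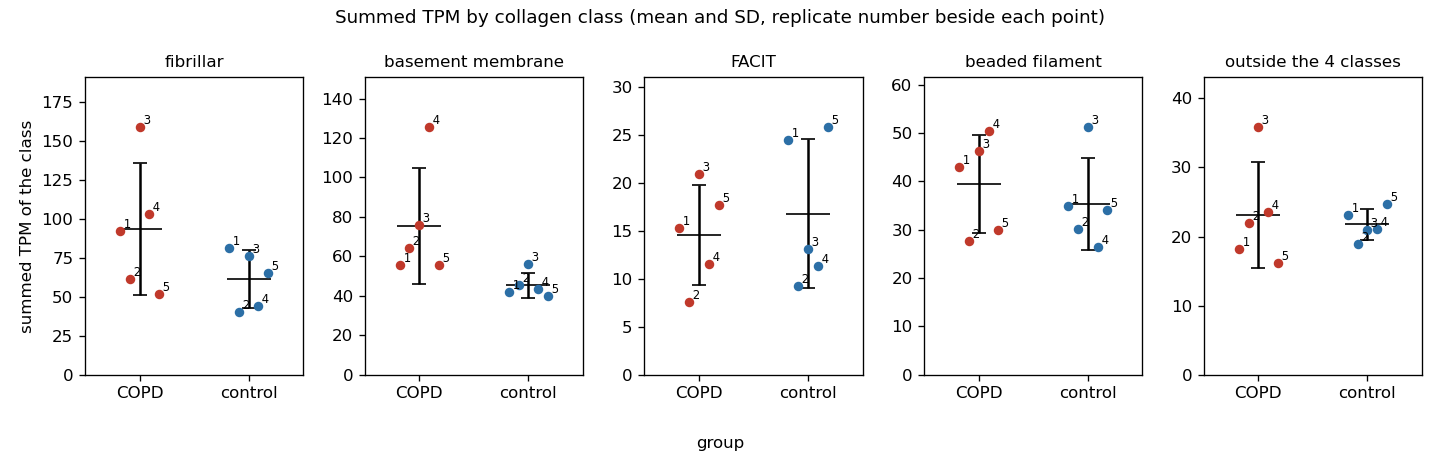
Summed TPM of each collagen class per library, COPD left of control, with the replicate number beside each point, the group mean and its SD (n = 5 each). In the basement membrane class COPD replicate 4 (126 TPM) stands above all other libraries, and in the fibrillar class COPD replicate 3 (159 TPM) does.

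Col4a2 had the smallest p of the family. It was at 118, 130.0, 147, 226 and 116 CPM in COPD replicates 1 to 5, against 71.7, 74.3, 107, 78.3 and 69.9 CPM in control replicates 1 to 5. Every COPD library lay above every control, and it was the only 1 of 34 members whose groups did not overlap, where 1.29% of all tested genes had all COPD libraries above all controls and 2.84% had no overlap in either direction. The log2 fold change was 0.88 ± 0.19 (SE), 1.83-fold, with an edgeR adjusted p of 0.0887. Col4a1 was at 134, 154, 165, 282 and 105 CPM in COPD and at 76.4, 85.2, 122, 75.0 and 67.7 CPM in control. Only COPD replicate 5 lay below a control (replicate 3). Its log2 fold change was 0.98 ± 0.24 (adjusted p = 0.107, edgeR).

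COPD replicate 4 was the highest library for both genes. The sum of 10 endothelial markers was 1106 TPM there, 660 to 1002 TPM in the other COPD libraries and 679 to 990 TPM in control, but Fabp4 alone held 776 of the 1106 TPM. Without Fabp4 the sum was 330.3 TPM in COPD replicate 4 and 182 to 294 TPM in the other COPD libraries. In control it was 221 to 347 TPM, with control replicate 2 the highest of all libraries. Of the 10 markers 4 peaked in COPD replicate 4 and 6 in other libraries. Of the 10, 3 had a log2 fold change above 0 (median -0.07). Without COPD replicate 4 the log2 fold changes were 0.67 for Col4a2 and 0.71 for Col4a1 (adjusted p = 0.146 and 0.181, edgeR; 0.039% of genes called). Without COPD replicate 5 they were 0.95 and 1.11, and both passed (adjusted p = 0.0291 and 0.0294). Over the 7 libraries with Y-linked transcripts, 2 COPD and 5 control, both passed too (0.79 and 0.92, adjusted p = 0.0385 and 0.0421), among 3.7% of genes called.

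Col4a1 and Col4a2 lie head to head, and in the RefSeq annotation of GRCm38.p6 their transcripts start on opposite strands and share their first 22 bases. The stretch is shown because both genes with the smallest p in the family begin in it; it lies at chr8:11312805-11312826 and is written on the plus strand, that of Col4a2.
Col4a1 and Col4a2 shared start: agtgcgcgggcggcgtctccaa
The exons of the pair overlap in the annotation, and no source used here says whether counting used strand, so reads from the shared stretch could be assigned to either. The ratio of Col4a1 to Col4a2 in TPM was 1.10, 1.16, 1.10, 1.21 and 0.884 in COPD replicates 1 to 5 and 1.04, 1.12, 1.11, 0.935 and 0.945 in control replicates 1 to 5. The pair thus stayed near equal levels in each library, with the lowest ratio in COPD replicate 5. The other tested type IV chains lay near 1 or 2 CPM. Col4a3 was at 1.62, 2.37, 2.35, 2.04 and 1.10 CPM in COPD and at 1.86, 2.49, 2.26, 1.83 and 1.33 CPM in control (log2 fold change -0.04 ± 0.25), with full overlap. Col4a4 had 0.40 ± 0.31 and Col4a5 0.25 ± 0.28, none with an unadjusted p under 0.05.

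Among fibrillar genes Col5a3, a chain of type V collagen, had the smallest p. It was at 52.7, 49.1, 57.8, 53.3 and 21.3 CPM in COPD and at 21.6, 16.9, 38.8, 22.7 and 26.6 CPM in control. COPD replicates 1 to 4 lay above every control, while COPD replicate 5 lay among the lower controls. The log2 fold change was 0.89 ± 0.27 (adjusted p = 0.167, edgeR) and 1.07 without COPD replicate 5 (adjusted p = 0.0175). Of the other type V chains, Col5a2 was at 15.7, 12.6, 20.3, 24.9 and 12.7 CPM in COPD and at 13.6, 11.2, 14.0, 10.2 and 11.9 CPM in control (log2 fold change 0.50 ± 0.19, adjusted p = 0.259, edgeR). Col5a1 was at 23.2, 16.7, 26.5, 29.6 and 22.7 CPM in COPD and at 17.6, 13.4, 23.7, 14.4 and 19.4 CPM in control (0.42 ± 0.18, adjusted p = 0.303, edgeR). Both were highest in COPD replicate 4, and for both the groups overlapped. Over Col5a1 in TPM, Col5a3 stood at 3.14, 4.07, 3.05, 2.49 and 1.28 in COPD replicates 1 to 5 and at 1.69 to 2.27 in the controls, so COPD replicates 1 to 4 lay above and COPD replicate 5 below the control range. Over Col5a2 it stood at 3.67, 4.25, 3.13, 2.34 and 1.82 in COPD and at 1.66 to 3.02 in the controls. There COPD replicates 4 and 5 lay within the control range.

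Col3a1, which encodes type III collagen of pliable connective tissue, was at 78.3, 58.0, 94.7, 104 and 28.8 CPM in COPD and at 40.5, 19.2, 56.6, 22.1 and 33.2 CPM in control. Again COPD replicates 1 to 4 lay above every control and COPD replicate 5 within them. The log2 fold change was 1.08 ± 0.35 (adjusted p = 0.197, edgeR), and 1.29 without COPD replicate 5 (adjusted p = 0.0399). The bases before the start sites of these genes are shown because Col5a3 and Col3a1 had the smallest p among fibrillar genes; both windows are from RefSeq (GRCm38.p6), hold no annotated exon, and have capitals at CCAAT, searched on both strands. They lie at chr9:20815068-20815317 on the minus strand and chr1:45311288-45311537 on the plus strand.
Col5a3: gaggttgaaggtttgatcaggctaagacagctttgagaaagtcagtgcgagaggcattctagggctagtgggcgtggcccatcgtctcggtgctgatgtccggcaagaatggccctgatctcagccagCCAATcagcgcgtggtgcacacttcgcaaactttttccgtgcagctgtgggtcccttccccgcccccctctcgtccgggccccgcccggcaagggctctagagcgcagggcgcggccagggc
Col3a1: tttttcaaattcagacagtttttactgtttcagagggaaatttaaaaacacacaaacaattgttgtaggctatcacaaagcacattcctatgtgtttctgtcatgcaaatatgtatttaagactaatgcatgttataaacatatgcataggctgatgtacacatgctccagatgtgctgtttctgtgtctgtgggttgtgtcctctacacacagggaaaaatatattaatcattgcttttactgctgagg
The Col5a3 stretch was 62.8% G or C, with 1 CCAAT and 2 GGGCGG matches, and the Col3a1 stretch 35.2%, with none of either and 1 TATAAA match. The pair thus differed in base composition. In the windows of 300 bases at hand, which cover 35 of the 44 members, CCAAT stood in 34.2% of 38 member windows and 37.4% of all 32851, GGGCGG in 60.5% and 35.7%, and TATAAA in 13.2% and 13.6%. Each motif was searched by itself on both strands, and a base could count for more than 1 motif.

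Type I collagen genes differed by less than the spread between libraries. Col1a1 was at 98.4, 45.0, 219, 89.8 and 38.5 CPM in COPD and at 80.1, 24.3, 72.3, 34.0 and 49.6 CPM in control (log2 fold change 0.91 ± 0.46, adjusted p = 0.377, edgeR). COPD replicate 3 stood at more than any other library, and the groups overlapped. Without that library the log2 fold change was 0.39 (adjusted p = 0.755; 0.0859% of genes called). Col1a2 was at 78.8, 41.7, 121, 65.3 and 35.3 CPM in COPD and at 60.0, 32.4, 59.9, 26.7 and 44.4 CPM in control (0.61 ± 0.33, adjusted p = 0.418), and 0.32 without COPD replicate 3. In TPM, Col1a1 over Col1a2 stood at 1.10, 0.948, 1.59, 1.21 and 0.959 in COPD and ranged from 0.661 to 1.17 in control.

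Among the low fibrillar genes, Col11a1, a type XI chain of cartilage and of nascent fibrils, was at 1.48, 0.370, 1.91, 1.02 and 0.980 CPM in COPD and at 0.677, 0.0592, 0.598, 0.222 and 0.608 CPM in control (log2 fold change 1.39 ± 0.51, adjusted p = 0.245, edgeR), on at most 26 counts in a library. COPD replicates 1, 3, 4 and 5 lay above every control. Its partner Col11a2 ranged from 4.48 to 33.5 CPM in COPD and from 4.77 to 22.8 CPM in control (0.61 ± 0.47). Both type XI genes were highest in COPD replicate 3. Col24a1 and Col27a1, minor fibrillar collagens, had 0.42 ± 0.25 and 0.22 ± 0.29.

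COPD replicate 3 was also the library with the most transcripts of bone. Markers of cartilage and bone, of which 6 of 8 were in the table, summed to 3.53, 0.0100, 19.5, 0.530 and 0.240 TPM in COPD replicates 1 to 5 and to 4.48, 0.0300, 0.240, 0.150 and 1.28 TPM in control replicates 1 to 5. Ibsp, bone sialoprotein, had 114 counts in COPD replicate 3, at most 8 in the other COPD libraries and 0 to 31 in control. Bglap, osteocalcin, was present in COPD replicates 1 and 3 and control replicate 1 and at 0 in the other 7 libraries, and the cartilage proteoglycan gene Acan had at most 5 counts. COPD replicate 3 was the highest library for 15 of the 34 tested members. Leaving out the 3 libraries with Bglap counts, an alternative chosen after the data were seen, kept COPD replicates 2, 4 and 5 and control replicates 2 to 5. Among these, 9 of 10 fibrillar genes stayed above 0 (median 0.45), and none was called (background 0.00779%, 1 gene). None had an unadjusted p under 0.05 in edgeR. Of all 12835 genes tested in this smaller set 1168 had such a p, against 1851 of 12697 over all 10 libraries. In the same libraries Col4a2 had 0.94 and Col4a1 1.06 (adjusted p = 0.355 and 0.375, edgeR). Of the fibrillar genes Col1a1 had 0.37 there, Col1a2 0.23, Col3a1 0.97, Col5a1 0.39, Col5a2 0.51, Col5a3 0.67 and Col11a1 1.11.

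**Figure D4:**
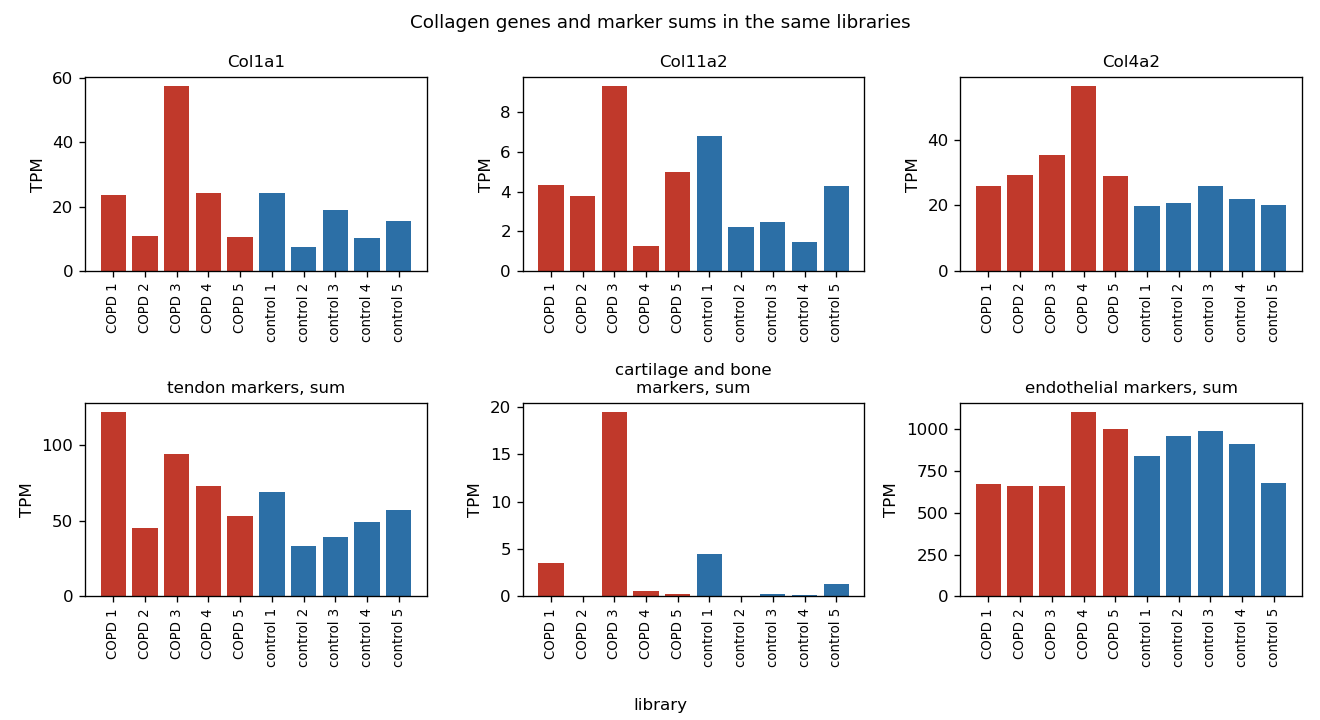
TPM in each library of Col1a1, Col11a2 and Col4a2 (top) and summed TPM of tendon, cartilage and bone, and endothelial markers (bottom), COPD left of control, with 1 bar per library. Bone and cartilage markers peak in COPD replicate 3, as Col1a1 and Col11a2 do. Col4a2 peaks in COPD replicate 4, as the endothelial sum does with Fabp4 counted. Without Fabp4 that sum is highest in control replicate 2, with COPD replicate 4 the highest COPD library.

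Of 10 tendon markers other than collagens, 9 were tested and 8 lay above 0 in log2 fold change (median 1.08). Of the 9, 3 had an unadjusted p under 0.05 in edgeR, all higher in COPD, where 7.94% of all tested genes were. In edgeR 0 of these markers passed the adjusted threshold (2 in DESeq2, Thbs4 and Tnmd, and 1 in voom, Thbs4). Their sum was 122, 45.4, 94.1, 73.3 and 53.0 TPM in COPD and 69.0, 33.4, 39.2, 49.4 and 57.1 TPM in control, with overlap. Thbs4, thrombospondin-4 of tendon and muscle matrix, was at 86.9, 51.0, 76.0, 68.2 and 42.4 CPM in COPD and at 35.9, 18.3, 34.1, 27.0 and 27.8 CPM in control, with every COPD library above every control (1.18 ± 0.22, adjusted p = 0.0627, edgeR). It passed without COPD replicate 5 (1.30, adjusted p = 0.00826) and over the libraries with Y-linked transcripts (1.16, adjusted p = 0.0321). Tnmd, tenomodulin, averaged 2.31 ± 2.11 CPM in COPD and 0.564 ± 0.391 CPM in control (2.01 ± 0.59, adjusted p = 0.160, edgeR). Scx, the transcription factor of tendon progenitors, averaged 7.42 ± 1.67 CPM in COPD and 8.79 ± 1.82 CPM in control. Markers of fibroblasts were split, with 5 of 10 above 0 (median 0.01) and summed levels of 447 to 788 TPM in COPD and 771 to 892 TPM in control. Of 8 mural cell markers 1 was above 0 (median -0.08), as was 1 of 9 macrophage markers (median -0.61). Of these 9, 4 had an unadjusted p under 0.05 in edgeR, all lower in COPD, where 6.64% of all tested genes were, and 0 passed in edgeR, DESeq2 or voom. Lyz2 was called lower without COPD replicate 5 (-1.15, adjusted p = 0.0167, edgeR; 3.21% of genes called). Over the libraries with Y-linked transcripts Lyz2, Mrc1 and C1qc were called lower (3.7% of genes called). The part of tendon, bone, fibroblast or vascular RNA in the collagen values was not tested.

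FACIT collagens showed no common direction. Col14a1, which binds the surface of type I fibrils, was at 2.07, 1.92, 1.62, 2.58 and 3.43 CPM in COPD and at 3.22, 3.25, 4.25, 4.60 and 4.09 CPM in control. Only COPD replicate 5 overlapped the controls. The log2 fold change was -0.73 ± 0.22 (adjusted p = 0.162, edgeR), and -0.92 without COPD replicate 5 (adjusted p = 0.0349). Col22a1, a marker of the muscle-tendon junction, was at 30.7, 10.6, 33.9, 18.7 and 28.3 CPM in COPD and at 37.1, 7.99, 21.3, 9.76 and 36.0 CPM in control (0.12 ± 0.43). Its libraries spread more than 3-fold within each group, with control replicates 2 and 4 and COPD replicate 2 low. Col9a1, a FACIT chain of cartilage, was at 5.98, 3.85, 9.04, 2.37 and 7.29 CPM in COPD and at 9.88, 1.54, 3.99, 4.05 and 11.9 CPM in control (-0.14 ± 0.48), a spread as wide. Col20a1 was steadier, at 11.2, 9.47, 11.7, 11.5 and 15.6 CPM in COPD and at 13.1, 12.7, 12.2, 11.3 and 15.0 CPM in control (-0.11 ± 0.14). Col12a1, Col16a1 and Col19a1 had log2 fold changes of 0.66 ± 0.56, 0.22 ± 0.37 and -0.05 ± 0.21.

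Of type VI collagen, Col6a1, Col6a2 and Col6a3 encode the chains of the common trimer. Col6a1 was at 49.3, 28.7, 46.7, 48.7 and 33.7 CPM in COPD and at 34.8, 31.2, 59.2, 28.2 and 33.1 CPM in control (0.15 ± 0.21). Col6a2 was at 55.5, 33.4, 50.5, 58.4 and 27.4 CPM in COPD and at 32.3, 21.1, 49.3, 20.8 and 29.4 CPM in control (0.56 ± 0.26, adjusted p = 0.353, edgeR). Col6a3 was at 25.6, 23.5, 37.6, 30.9 and 22.1 CPM in COPD and at 17.7, 25.3, 37.5, 16.7 and 17.9 CPM in control (0.28 ± 0.23). For all 3 the groups overlapped, and control replicate 3 was above the other controls. Over Col6a2 in TPM, Col6a1 stood at 0.855, 0.819, 0.887, 0.804 and 1.18 in COPD and at 1.03 to 1.43 in control, so that COPD replicates 1 to 4 lay below every control. Col6a6, a minor chain, had -0.63 ± 0.48 at a mean of 1.08 ± 0.617 CPM in COPD and 1.68 ± 0.925 CPM in control.

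**Figure D5:**
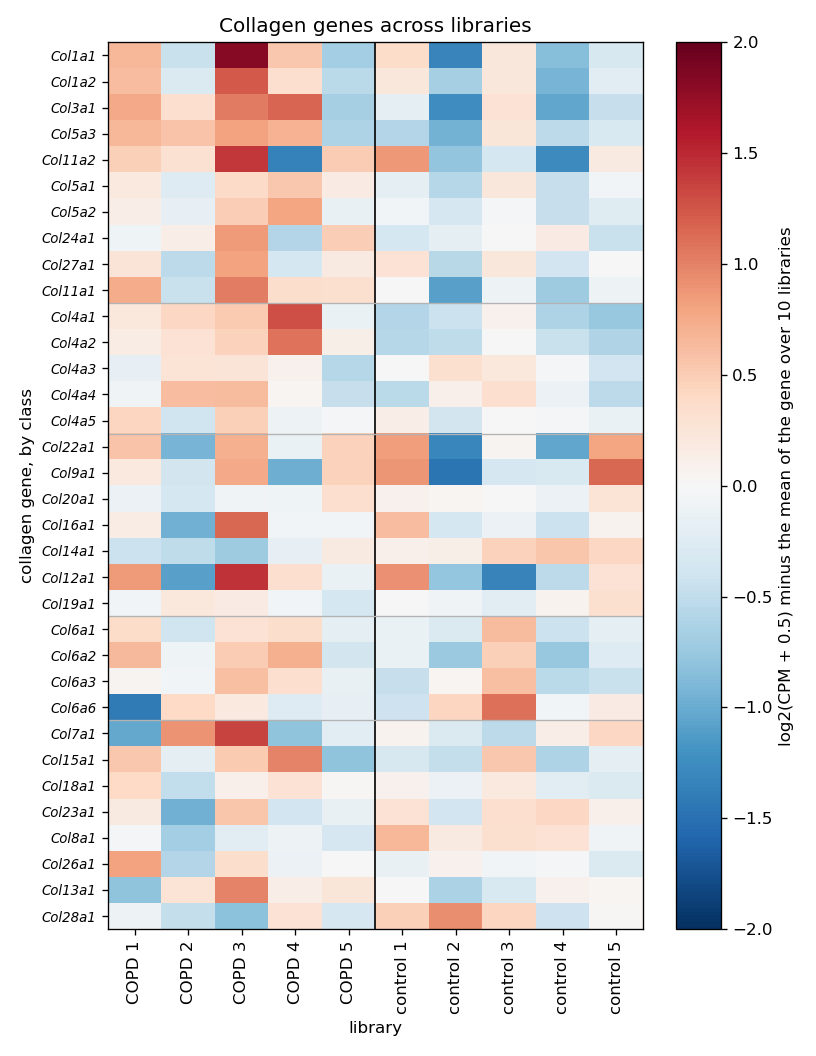
Log2(CPM + 0.5) of the 34 tested collagen genes in each library, minus the mean of the gene over 10 libraries, by class, COPD left of control. Many fibrillar genes are high in COPD replicate 3, Col4a1 and Col4a2 are highest in COPD replicate 4, and Col7a1 is high in COPD replicates 2 and 3 and low in COPD replicates 1 and 4.

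Col7a1, known as the anchoring fibril collagen of skin, was the most abundant member outside these classes. It was at 22.4, 85.5, 118, 26.1 and 39.4 CPM in COPD and at 48.1, 37.3, 31.8, 50.5 and 61.0 CPM in control, so that COPD libraries lay both above and below the controls (0.35 ± 0.41, adjusted p = 0.748, edgeR). COPD replicates 2 and 3, the high libraries, were the COPD libraries with Y-linked transcripts. Over the 7 libraries with such transcripts the log2 fold change was 1.16 (adjusted p = 0.0295), and with a term for such transcripts over all 10 libraries it was 1.15 (adjusted p = 0.0468; 1.7% of genes called). Without COPD replicate 3 it was -0.07. Col8a1, of the hexagonal networks of vessels, was at 2.22, 1.26, 1.91, 2.10 and 1.71 CPM in COPD and at 3.95, 2.66, 2.99, 2.94 and 2.15 CPM in control (-0.67 ± 0.22, adjusted p = 0.195, edgeR), with COPD replicate 1 alone above the lowest control. Col28a1 was at 0.812, 0.518, 0.294, 1.22 and 0.612 CPM in COPD and at 1.47, 2.19, 1.396, 0.555 and 0.939 CPM in control (-0.90 ± 0.41, adjusted p = 0.342, edgeR), on at most 37 counts in a library. Control replicates 1, 2 and 3 lay above every COPD library, while control replicates 4 and 5 lay among them. The multiplexins Col15a1 and Col18a1, of vascular and muscle basement membranes, had 0.51 ± 0.31 and 0.16 ± 0.17. Col13a1, Col23a1 and Col26a1 had 0.59 ± 0.40, -0.29 ± 0.30 and 0.38 ± 0.35.

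Of the genes that make, bind, sense and degrade collagen, none passed in the main edgeR test, and a few did in other settings. Over the libraries with Y-linked transcripts P4ha2 was higher in COPD (0.72, adjusted p = 0.0454, edgeR). Pcolce2, an enhancer of procollagen processing, was lower there (-1.36, adjusted p = 0.0317, edgeR), among 3.7% of genes called. The Y-linked term, which rests on the same COPD and control libraries, gave -1.37 for Pcolce2 (adjusted p = 0.0299, edgeR, among 1.7% of genes called). Without COPD replicate 5 Adamts14, a procollagen protease, was higher (1.27, adjusted p = 0.0443, edgeR, among 3.21% of genes called). In the list of collagen synthesis and cross-linking, 27 genes were tested, 0 passed the adjusted threshold in edgeR (1 in DESeq2, Plod2, and 0 in voom), while 6 had an unadjusted p under 0.05, 5 of them higher in COPD (median 0.06). Of all 12697 genes tested in edgeR, 7.94% had such a p and were higher in COPD, and 6.64% had one and were lower. Plod2, a lysyl hydroxylase, was at 10.2, 3.77, 7.35, 10.7 and 4.90 CPM in COPD and at 2.71, 4.85, 3.52, 4.83 and 2.71 CPM in control (0.98 ± 0.30, adjusted p = 0.169, edgeR). Loxl2, a cross-linking oxidase that acts on type IV collagen, averaged 8.02 ± 1.34 CPM in COPD and 4.91 ± 2.11 CPM in control (0.71 ± 0.24). P4ha2, a prolyl hydroxylase, averaged 33.4 ± 7.99 CPM in COPD and 23.6 ± 4.02 CPM in control (0.50 ± 0.17). Of 14 fibril-binding proteoglycans and glycoproteins, 4 had such a p, 3 of them higher in COPD, and 0 passed in edgeR, DESeq2 or voom (median 0.11). Those with the smallest p were Kera (1.44 ± 0.53), Aspn (0.51 ± 0.21) and Dpt (0.53 ± 0.22); Kera also stands among the tendon markers and Dpt among those of fibroblasts. Collagen receptors (8 tested, median 0.03) had 1 gene at such a p, Itga10 (0.60 ± 0.23), and genes of collagen breakdown (8 tested, median -0.0033) had none. By p, Itga10 was followed by Cd44 (0.23 ± 0.20) and Itga11 (0.17 ± 0.26), and among breakdown genes the smallest p were those of Ctsl (-0.28 ± 0.15), Mmp14 (0.27 ± 0.20) and Ctsk (0.64 ± 0.48). In both of these lists 0 passed in edgeR, DESeq2 or voom.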

How the data were processed

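Polyadenylated RNA of 10 gastrocnemius samples was sequenced, per the labels' protocols. The authors deposited expected counts per gene (estimates, 30.7% of values not whole) and TPM for the same 18025 genes. RSEM 1.2.12, Bowtie2 2.2.5, DESeq2 1.4.5, HISAT2 2.0.4 and build mm9 appear, with no role or order, in the submitters' processing notes. Whether counting used strand was not given in the sources used here. Groups came from sample titles. The members, classes and lists were chosen with earlier results of these data known.

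Expected counts were rounded, kept by filterByExpr (12697 genes), scaled by TMM and fitted with edgeR 4.0.16 (R 4.3.3; quasi-likelihood test) over all 10 libraries, with Benjamini-Hochberg adjustment over all genes and a threshold of 0.05. The SE is the log2 fold change divided by the square root of F. Named members were those past 0.05, adjusted or not, the 3 most abundant of each of the 4 classes, the most abundant other, and up to 3 genes per list by p; others are given briefly, and bone genes and Scx were named after their values were seen. Alternatives were DESeq2 1.42.0, voom and limma 3.58.1, other scalings and filters, a replicate block, Y-linked terms and leaving out libraries. The procedure was tested on simulated data. No pair of libraries was alike to within counting error (chi-square over its degrees of freedom, 17.7 to 122). Library totals were 14085854 to 17251034 counts, and intervals of counting error were not computed. RefSeq sequences are of GRCm38.p6, another build than mm9. Figures used matplotlib 3.10.9.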

Additional observations from a re-analysis of the deposited data

Results flagged for a closer look

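Over the 52 sets of 5 libraries searched, 5 held a library whose gap to its nearest neighbour was large against the range of the set, where chance gives about 1 in 20. In COPD, Col4a2 was at 226 CPM in replicate 4, while the remaining COPD libraries held 116 to 147 CPM. The summed basement membrane TPM was likewise 126 in COPD replicate 4, with 55.7 to 75.7 in the remaining COPD libraries. That sum includes Col4a2, so its flag is not separate from that of Col4a2. The 52 sets are thus not independent, and the number of flags cannot be read directly against 1 in 20. Col5a3 was at 21.3 CPM in COPD replicate 5, the lowest, with the remaining COPD libraries at 49.1 to 57.8 CPM. Among controls, replicate 3 stood highest for Col4a2 (107 CPM, with 69.9 to 78.3 CPM in the others) and for Col6a1 (59.2 CPM, with 28.2 to 34.8 CPM in the others). The part of any single source of RNA in these values was not tested.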

How the results depend on the processing

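No collagen gene passed in edgeR with TMM, RLE or upper-quartile factors, library size alone, no filter on low counts or the replicate block, nor in limma on TPM. DESeq2 called 4, voom with sample weights 1, a term for Y-linked transcripts 1 and the libraries with such transcripts 5. Both Y-linked settings set COPD replicates 2 and 3 against the controls, so they are not separate results. Over all genes the count was 8 in the reported test, 420 in DESeq2, 17 with no filter, 97 and 63 in limma on log2(TPM + 1) and log2(TPM + 0.1), 137 in voom, 216 with the Y-linked term, 488 in the Y-linked libraries and 1 in the libraries without Bglap transcripts, a choice made after the data were seen. Leaving out 1 library at a time gave 0 to 410 genes and 0 to 5 collagen genes, with the most without COPD replicate 5; the 0 genes came without COPD replicate 2 (1510 at an unadjusted p under 0.05 in edgeR). The cause was not tested.

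Same-numbered libraries had correlations of deviations of -0.140 to 0.0471. The labels give no pairing, and differently numbered libraries were not compared, so these values do not decide whether replicate numbers pair the samples. With the replicate block 7 genes and 0 collagen genes passed. There 12 of 34 collagen genes had an unadjusted p under 0.05 in edgeR, as did 1657 of all 12697 tested genes. The tendon marker Thbs4 passed with the block (adjusted p = 0.0484, edgeR) and had not without it (0.0627).

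Signs were followed for the 20 members named by rule, of which 5 turned. Col22a1 had a log2 fold change of -0.013 with library size alone and with the Y-linked term, -0.0071 in the Y-linked libraries, and -0.090 to 0.38 leaving out 1 library. Col4a3 had 0.012 in voom, 0.28 with the Y-linked term and 0.29 in the Y-linked libraries, and -0.16 to 0.10 leaving out 1 library. Col6a1 had -0.032 and -0.035 in limma with 1 and 0.1 added and -0.022 without the Bglap libraries. Col7a1 had -0.088 and -0.12 in those limma settings, and -0.067 to 0.55 leaving out 1 library. Col9a1 had 0.057 in voom, 0.0033 with the replicate block, 0.033 with the Y-linked term and 0.039 in the Y-linked libraries, and -0.39 to 0.23 leaving out 1 library. Genes near 1 CPM, such as Col11a1 and Col28a1, rested on few counts, and 10 members were removed by the filter on low counts. DESeq2 and edgeR with no filter fitted all 44, but DESeq2 by default gives no adjusted p to genes of low mean count.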
